A study of Homo sapiens with 2 samples.

Results

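The genes described here encode the proteins of the mitochondrial ribosome, and were taken by their platform symbols, MRPL for the large and MRPS for the small subunit, each followed by a number and in some cases a letter from A to C. The rule found 77 probe sets for 73 genes, of 18417 genes with a probe set of their own, and split them into 48 large and 25 small subunit genes. The rule reads the symbols alone. SW480, an established human colorectal adenocarcinoma line, had been transfected with pTarget, a mammalian expression plasmid, and kept under Geneticin. The TFAP2E-labelled array holds RNA of stable clones given the coding sequence of TFAP2E, the transcription factor AP-2 epsilon, and the control array holds RNA of stable SW480 cells with the empty vector. There was 1 array per group, and the labels do not say whether its RNA came from a single clone or a pool, so that a difference between the groups and a difference between clones cannot be told apart.

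Mitochondria keep their own ribosomes for the few messages of the mitochondrial genome, nearly all of which encode membrane subunits of the respiratory chain and of ATP synthase. The ribosomal RNAs are made inside the organelle, whereas every protein of both subunits is encoded in the nucleus, made in the cytosol and imported. Many of these proteins descend from bacterial ribosomal proteins, and others were added in the mitochondrial lineage. The small subunit binds the message and decodes it. The large subunit joins the amino acids and sits with its exit tunnel against the inner membrane.

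All values are log2 RMA values, as deposited, and differences are given as TFAP2E-labelled minus empty vector. With no replicates, no test, error or p-value can be given for any gene, and the number of arrays limits the precision. Counts take in the 11548 genes that reached 5.55, the median probe set value, on at least 1 array, and the rest are called dim. The probe set for TFAP2E itself read 6.81 on the array with its label and 6.77 with empty vector (difference 0.04), which does not show the introduced gene, so that all directions rest on the labels. Of 10 colon epithelial markers 9 passed the filter. KRT18 read 12.55 with TFAP2E and 12.57 with empty vector, whereas VIL1, at 6.22 with TFAP2E and 4.94 with empty vector (1.28), and CDH1, at 6.38 with TFAP2E and 7.08 with empty vector (-0.71), lay past 1.5-fold. VIL1 passed the filter only through the array on which it was higher. Of 17 leukocyte, fibroblast, endothelial and neural markers 5 passed, with differences from -0.68 for NCAM1, at 6.83 with TFAP2E and 7.51 with empty vector, to 0.57 for CD68, at 6.60 with TFAP2E and 6.02 with empty vector. Among the 5, CD14 (5.46 with TFAP2E, 5.66 with empty vector) and COL1A2 (5.47 with TFAP2E, 5.56 with empty vector) passed only through the empty vector array. PTPRC, a defining leukocyte marker, read 2.74 on both arrays. The part of these marker differences in the values below was not tested.

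Mitochondrial ribosomal protein genes read slightly but broadly higher on the TFAP2E-labelled array. Of the 71 that passed the filter, 65 were higher and 6 lower, against 59.2% higher among all 11548 genes. Under other scalings 61 were higher without the loess trend (52.1% of all genes), 63 with quantile normalization (54.1%) and 67 with centring (65.4%). With the values as deposited, 60 of the 71 lay above the median of all genes. Their median difference was 0.16 (middle 50% from 0.07 to 0.31), beside 0.04 over all genes (from -0.08 to 0.17). No member reached 1.5-fold in either direction, which 0.892% of all genes did upward and 0.606% downward. At a smaller step of 0.322 (log2), 14 of the 71 were higher (19.7%) and 0 lower, against 7.9% and 3.8% of all genes. That count depended on the scaling, and fell to 8 of 71 with quantile normalization (6.41% of all genes) and with the loess trend removed (6.10%), whereas centring gave 19 (9.82%).

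**Figure D1:**
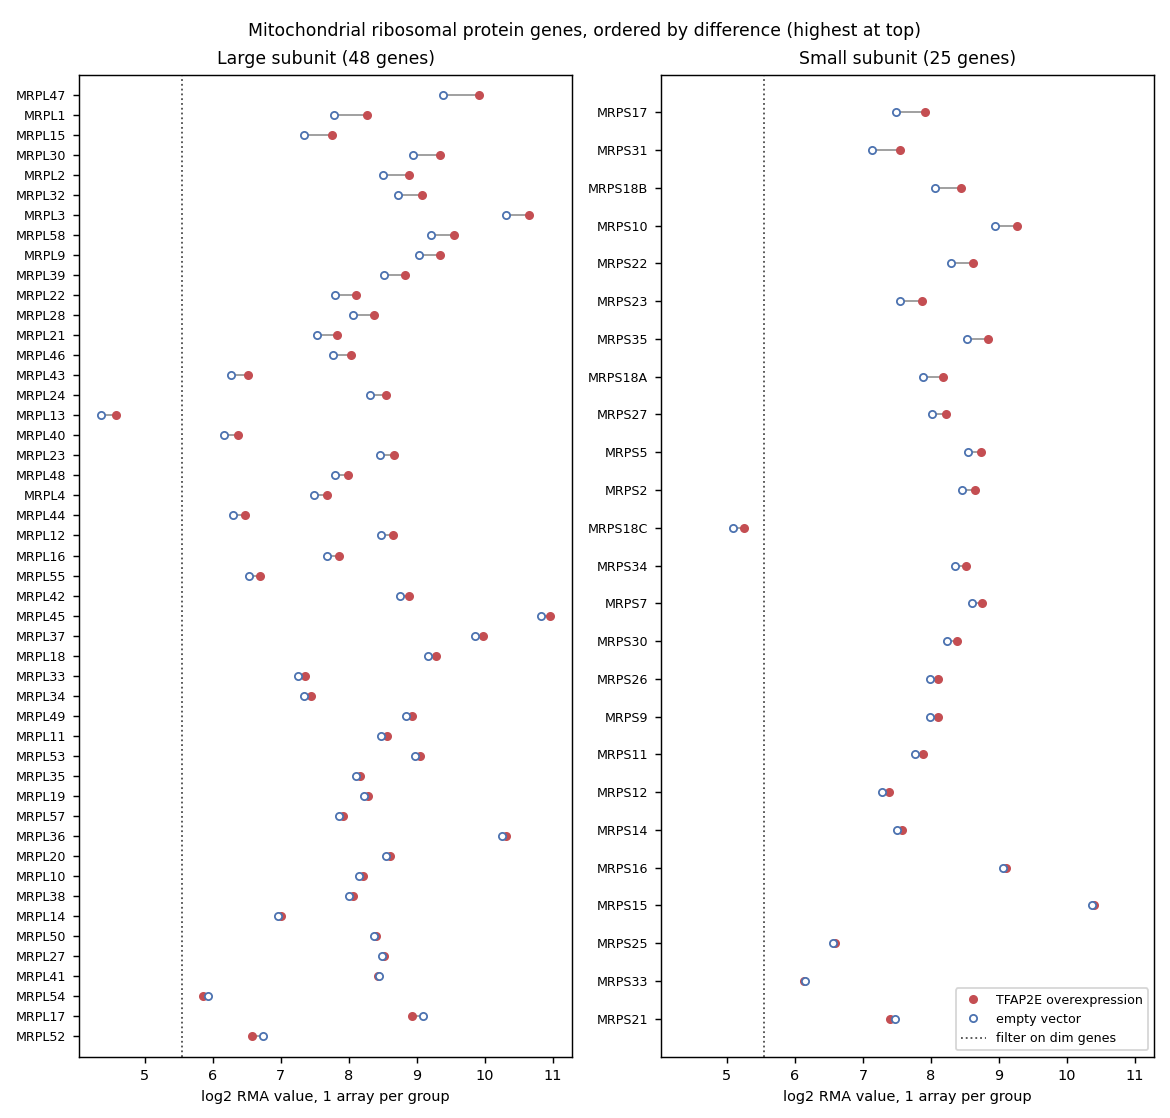
The log2 RMA value of each of the 73 genes on the TFAP2E-labelled array (filled) and the empty vector array (open), by subunit and ordered by difference, with the filter on dim genes at 5.55 as a dotted line. Filled points lie to the right of open ones for all but 6 of the genes that passed the filter, and MRPL13 and MRPS18C lie below it on both arrays.

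The letters of the promoters are given for the genes at both ends of this ranking, since the group read higher together and the introduced factor binds DNA. The 3 highest and 3 lowest of the 65 members that passed the filter and had a promoter listed are shown from 250 bases before to 50 after the start site (RefSeq, GRCh38.p14, 5′ to 3′ on the gene's strand, first listed start). Capitals mark GCCNNNGGC, a consensus of AP-2 factors, GCGCATGCG, the core of the site of NRF1, a regulator of many nuclear genes for mitochondrial proteins, and CCGGAAG, an ETS site bound by factors such as GABPA, on either strand.
MRPL47, chr3:179604589-179604888, minus strand: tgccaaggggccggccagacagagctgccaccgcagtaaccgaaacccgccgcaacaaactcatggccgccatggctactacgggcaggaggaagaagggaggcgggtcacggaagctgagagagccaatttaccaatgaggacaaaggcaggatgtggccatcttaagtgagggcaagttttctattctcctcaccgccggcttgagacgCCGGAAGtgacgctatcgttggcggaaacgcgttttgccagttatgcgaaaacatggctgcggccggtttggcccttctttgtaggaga
MRPL1, chr4:77862580-77862879, plus strand: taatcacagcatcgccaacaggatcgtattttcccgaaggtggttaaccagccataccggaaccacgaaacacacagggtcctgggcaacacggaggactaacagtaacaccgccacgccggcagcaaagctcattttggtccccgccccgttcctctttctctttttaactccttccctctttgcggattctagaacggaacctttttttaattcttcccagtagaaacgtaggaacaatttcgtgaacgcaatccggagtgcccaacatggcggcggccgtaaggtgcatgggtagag
MRPS17, chr7:55951627-55951926, plus strand: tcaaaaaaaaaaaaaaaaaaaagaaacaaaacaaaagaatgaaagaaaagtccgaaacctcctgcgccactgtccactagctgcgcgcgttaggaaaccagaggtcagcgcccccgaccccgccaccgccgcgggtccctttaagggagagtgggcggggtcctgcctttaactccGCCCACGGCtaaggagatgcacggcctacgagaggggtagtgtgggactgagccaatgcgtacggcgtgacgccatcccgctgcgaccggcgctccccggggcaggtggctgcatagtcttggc
MRPS21, chr1:150293611-150293910, plus strand: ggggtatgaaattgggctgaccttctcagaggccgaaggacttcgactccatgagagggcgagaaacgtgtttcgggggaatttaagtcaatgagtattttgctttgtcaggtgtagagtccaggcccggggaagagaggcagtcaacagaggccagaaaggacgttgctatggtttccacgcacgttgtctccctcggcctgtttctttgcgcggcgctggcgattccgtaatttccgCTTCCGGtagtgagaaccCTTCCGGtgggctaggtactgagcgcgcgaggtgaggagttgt
MRPL17, chr11:6683291-6683590, minus strand: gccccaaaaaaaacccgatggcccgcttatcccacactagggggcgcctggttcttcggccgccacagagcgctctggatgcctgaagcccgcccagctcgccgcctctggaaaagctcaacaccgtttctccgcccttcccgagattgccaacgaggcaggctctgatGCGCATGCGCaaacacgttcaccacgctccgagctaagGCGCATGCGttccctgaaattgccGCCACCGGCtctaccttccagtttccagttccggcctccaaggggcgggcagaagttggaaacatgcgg
MRPL52, chr14:22829637-22829936, plus strand: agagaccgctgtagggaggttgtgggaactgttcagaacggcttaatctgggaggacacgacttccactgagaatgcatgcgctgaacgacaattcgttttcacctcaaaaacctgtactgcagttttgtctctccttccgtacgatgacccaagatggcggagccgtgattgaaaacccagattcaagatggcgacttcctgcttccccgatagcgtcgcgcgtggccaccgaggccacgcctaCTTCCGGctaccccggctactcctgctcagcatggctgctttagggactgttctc

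Among the highest 3, MRPL47 had 1 ETS match, beginning 39 bases before the start site, MRPS17 had 1 AP-2 match, beginning 74 bases before it, and MRPL1 had none of the 3 motifs. Among the lowest 3, MRPL17 had 1 AP-2 match and 3 NRF1 matches, of which a pair overlap as the strands of 1 palindrome, MRPS21 had 2 ETS matches and MRPL52 had 1. Over all 65 windows the AP-2 letters were found in 15 (23.1%), against 34.0% of the windows of 9216 other genes that passed the filter and 23.0% of all 27305 windows in the table. The ETS letters were found in 27 (41.5%), against 19.2% of the other genes and 10.7% of all windows, and the NRF1 core in 2 (3.08%), against 3.71% and 2.10%. The members' windows held a median of 60.3% G and C, those of the other genes 66.0%. In 1 member window, matches to different motifs overlapped. The median difference was 0.10 for the 15 members with the AP-2 letters and 0.17 for the 50 without, and 0.18 for the 27 with the ETS letters and 0.14 for the 38 without, with wide overlap in each case. A match describes letters only, and binding was not measured.

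Both subunits gave nearly the same picture. Of 47 large subunit genes 43 were higher and 4 lower, with a median difference of 0.16 (from -0.16 to 0.52), and of 24 small subunit genes 22 were higher and 2 lower, with a median of 0.16 (from -0.07 to 0.43). The medians differed by 0.01, large minus small, and the sign of that small gap turned with the processing. At the step of 0.322, 8 of 47 large and 6 of 24 small subunit genes were higher, against 7.9% of all genes, and the sum of 14 depended on the scaling as above. The median level of the large subunit was 8.40 on the TFAP2E-labelled array, against 8.31 with empty vector, and that of the small subunit was 8.19 with TFAP2E and 8.0 with empty vector. These medians are taken over different probe sets, whose brightness per transcript differs, and therefore do not rank the subunits by abundance.

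**Figure D2:**
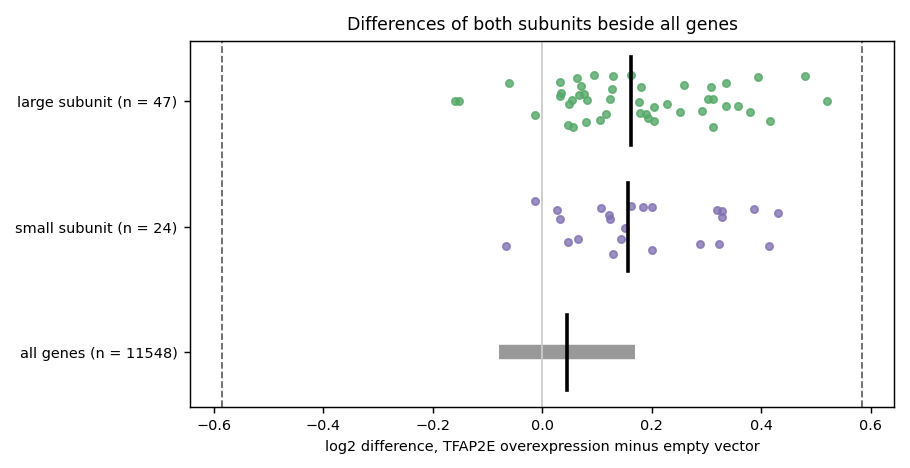
Log2 differences, TFAP2E-labelled minus empty vector, of the large (47) and small (24) subunit genes that passed the filter, each point a gene and the black bar the median, above the middle 50% and median of all 11548 genes. The dashed lines mark 1.5-fold, which no member reached, and the scatter of points in height has no meaning.

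The members are described next by their place in the ribosome, in groups drawn up after the values had been seen, so that a likeness within a group is a description only. Within the large subunit the widest difference was that of MRPL47, the counterpart of bacterial L29 at the rim of the exit tunnel, which read 9.91 on the TFAP2E-labelled array, against 9.39 with empty vector. The difference of 0.52 (1.43-fold) was the nearest of all members to the 1.5-fold rule. The other proteins of the tunnel and its rim ran from -0.15 to 0.36. MRPL32 read 9.07 with TFAP2E and 8.71 with empty vector (0.36) and MRPL22, whose loop reaches into the tunnel, 8.10 with TFAP2E and 7.79 with empty vector (0.31). MRPL39 read 8.83 with TFAP2E and 8.52 with empty vector (0.31) and MRPL24 8.54 with TFAP2E and 8.31 with empty vector (0.23). Of the remaining members, MRPL23 differed by 0.20, MRPL4 by 0.19, MRPL44 by 0.18 and MRPL45, which contacts the inner membrane, by 0.13. MRPL17 read 8.93 on the TFAP2E-labelled array, against 9.08 with empty vector (-0.15) and was the sole member of these 10 that was lower. MRPL45 had the brightest probe set of all members, at 10.95 on the TFAP2E-labelled array, against 10.83 with empty vector.

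The L1 stalk, a mobile arm that moves spent transfer RNA out of the ribosome, was represented by MRPL1 and by MRPL9, which sits at its foot. MRPL1 read 8.26 on the TFAP2E-labelled array, against 7.78 with empty vector (0.48, 1.39-fold), the second highest difference of all. MRPL9 read 9.34 with TFAP2E and 9.02 with empty vector (0.31). The opposite arm, the L7/L12 stalk that recruits translation factors, showed smaller differences. MRPL12, the stalk protein itself, read 8.65 with TFAP2E and 8.47 with empty vector (0.18), and its anchors MRPL11 and MRPL10 differed by 0.08 and 0.05. All of the 5 genes were higher.

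Among the 5 genes grouped as the peptidyl transferase centre, where peptide bonds form, and the core of the large subunit, all were higher. MRPL2, a conserved protein of that group, read 8.88 on the TFAP2E-labelled array, against 8.50 with empty vector (0.38). MRPL3 read 10.65 with TFAP2E and 10.31 with empty vector (0.34). MRPL16 differed by 0.18, whereas MRPL14 (0.03) and MRPL27 (0.03), the counterpart of a bacterial protein that reaches towards the catalytic site, read nearly the same on both arrays, and the sign of MRPL27 turned under quantile normalization and without the loess trend. The short proteins MRPL33, MRPL34, MRPL35 and MRPL36, counterparts of small bacterial proteins of the large subunit, differed by 0.06 to 0.10. The lowest of these was MRPL36, whose dimmer probe set read -0.08 and whose mean over both probe sets was -0.01.

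Of the 6 genes grouped here under the central protuberance, the crest of the large subunit that faces the small one, 5 were higher. MRPL46 read 8.03 on the TFAP2E-labelled array, against 7.77 with empty vector (0.26), MRPL40 differed by 0.20, MRPL48 by 0.19, MRPL18 by 0.12 and MRPL38 by 0.05. MRPL52 read 6.57 with TFAP2E and 6.73 with empty vector (-0.16), the lowest difference of all members.

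Other large subunit genes were not put into any of these groups, whatever their place in the ribosome. Of those, MRPL15 read 7.76 on the TFAP2E-labelled array, against 7.34 with empty vector (0.42), and MRPL30 9.34 with TFAP2E and 8.94 with empty vector (0.39). Both are counterparts of conserved bacterial proteins. MRPL58, a peptidyl-tRNA hydrolase that rescues stalled ribosomes and is also a structural protein of the large subunit, read 9.55 with TFAP2E and 9.21 with empty vector (0.33). MRPL28 and MRPL21 differed by 0.30 and 0.29, and MRPL43 by 0.25. The mitochondria-specific MRPL55 (0.16), MRPL42 (0.13), MRPL37 (0.12), MRPL49 (0.08), MRPL53 (0.08), MRPL57 (0.06) and MRPL50 (0.03, with its sign turned under the same alternatives as MRPL27) lay at or below the median. So did the conserved MRPL19 (0.07) and MRPL20 (0.05). MRPL54 (-0.06) was slightly lower, and MRPL41 (-0.01) too, except after centring of the arrays, where it was higher. MRPL54, at 5.86 with TFAP2E and 5.92 with empty vector, was the member just inside the filter.

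Among the small subunit genes counted as members, the widest difference was that of MRPS17, a conserved protein of the body. It read 7.91 on the TFAP2E-labelled array, against 7.48 with empty vector (0.43). MRPS31, a mitochondria-specific protein of the head, read 7.54 with TFAP2E and 7.13 with empty vector (0.41), and MRPS18B, 1 of 3 human relatives of bacterial S18, 8.45 with TFAP2E and 8.06 with empty vector (0.39). MRPS10, a conserved protein of the head, read 9.27 with TFAP2E and 8.94 with empty vector (0.33). The other proteins of the head differed by less, MRPS7 by 0.15, MRPS9 by 0.12 and MRPS14 by 0.07. The head proteins were thus all higher, over a range from 0.07 to 0.41.

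Proteins on the path of the message were higher by similar amounts. MRPS5, near the entry of the channel, read 8.74 on the TFAP2E-labelled array, against 8.54 with empty vector (0.20), MRPS2 8.64 with TFAP2E and 8.45 with empty vector (0.18), and MRPS12, the counterpart of the bacterial S12 of the decoding site, 7.39 with TFAP2E and 7.28 with empty vector (0.11). In the body and platform MRPS11 differed by 0.12, MRPS16 by 0.05 and MRPS15 by 0.03, of which MRPS16 and MRPS15 were lower without the loess trend. MRPS15 had the brightest probe set of the small subunit, at 10.40 with TFAP2E and 10.37 with empty vector. MRPS21 read 7.40 with TFAP2E and 7.46 with empty vector (-0.07), the lowest difference of the subunit.

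The mitochondria-specific proteins of the small subunit spread over most of the range of that subunit. MRPS22 read 8.62 on the TFAP2E-labelled array, against 8.29 with empty vector (0.33), MRPS23 7.87 with TFAP2E and 7.55 with empty vector (0.323) and MRPS35 8.84 with TFAP2E and 8.52 with empty vector (0.320). MRPS23 lay just inside and MRPS35 just outside the step of 0.322. Next came MRPS27, a pentatricopeptide repeat protein, at 0.20, MRPS34 at 0.16 and MRPS26 at 0.13. MRPS25 (0.03) and MRPS33, which read 6.13 with TFAP2E and 6.14 with empty vector (-0.01), were nearly equal on both arrays, and MRPS33 was higher after centring. MRPS33 was also the dimmest small subunit gene that passed the filter. MRPS18A (0.29) and MRPS30 (0.14) carry small subunit names but were found in the large subunit of the assembled human ribosome. Counting them there left the median differences at 0.16 for both subunits.

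Proteins with a bacterial counterpart and those added in mitochondria were both higher. Of 42 genes with a counterpart 40 were higher, with a median difference of 0.18, and of 29 mitochondria-specific genes 25 were, with a median of 0.14. In the large subunit the medians were 0.18 for 28 conserved and 0.13 for 19 added proteins, and in the small subunit 0.14 for 14 and 0.18 for 10, so that the order of the classes was opposite in the subunits. At the step of 0.322, 10 of the 42 conserved and 4 of the 29 added proteins were higher, against 7.9% of all genes. Their sum of 14 fell to 8 under 2 scalings, with 6.41% and 6.10% of all genes, and rose to 19 under centring (9.82%). MRPL47, the member with the widest difference, was moved to the conserved class, as the counterpart of bacterial L29, after its value had been seen. Counted with the added proteins, as at first, it left medians of 0.18 for 41 conserved and 0.15 for 30 added proteins, of which 9 and 5 passed the step.

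Not all members were equally well measured. MRPL13 read 4.57 on the TFAP2E-labelled array, against 4.36 with empty vector (0.21) and MRPS18C 5.26 with TFAP2E and 5.08 with empty vector (0.17). Both were dim on both arrays and entered no count. MRPS18B had 3 probe sets and MRPL20 had 2, in each case with identical values, so that these repeats add no measurement. The 2 probe sets of MRPL36 differed in sign, the brighter at 10.31 on the TFAP2E-labelled array, against 10.25 with empty vector (0.06) and the dimmer at 8.94 with TFAP2E and 9.02 with empty vector (-0.08). Many of these genes have processed pseudogenes, and which probes they share was not tested. Another 4 probe sets carried an MRPL or MRPS symbol together with that of another gene. They differed by -0.17 to 0.59 and were not counted as members. The highest carried the symbols URGCP-MRPS24 and MRPS24, and read 8.85 on the TFAP2E-labelled array and 8.26 with empty vector. Its difference of 0.586 lay just past 1.5-fold (0.585), and was wider than that of any member.

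The genes around each member on its chromosome were then read in the same way, since genes of 1 chromosome stretch can move together. Copy number was not measured, and its part in the values was not tested. For each member the median difference of the 10 nearest measured genes on each side was taken, in RefSeq gene order and without other members. Of the 71 members 62 lay above their own neighbours (87.3%), by a median of 0.12, whereas 49.9% of 11463 other genes lay above theirs. The medians of the neighbours ran from -0.16 to 0.33 around a median of 0.04, and across the 71 genes the members' differences followed them only loosely (Pearson r 0.28, Spearman rho 0.14, as a description, since all come from the same 2 arrays).

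Single genes lay at different distances from their neighbours. The neighbours of MRPS17 were higher by 0.33, so that its own 0.43 lay 0.10 above them, and MRPL32, at 0.36, lay 0.11 above neighbours at 0.24. MRPL47 had neighbours at 0.21 and exceeded them by 0.31. The share of other genes that lay more than 0.3 from their neighbours was not counted. Without that share beside it, the distance was over 0.3 for 9 members. Besides MRPL47 these were MRPL1 (0.43 above its neighbours), MRPS18B (0.42), MRPS31 (0.40), MRPL2 (0.38), MRPL30 (0.37), MRPL15 (0.35), MRPL9 (0.32) and MRPL28 (0.31). At the other end MRPL41, which differed by -0.01, had the lowest neighbours of all, at -0.16, and MRPL52 and MRPL17 lay below theirs by 0.25 and 0.23 (-0.25 and -0.23). MRPL41 and MRPL39 had fewer than 20 neighbours, 16 and 17.

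**Figure D3:**
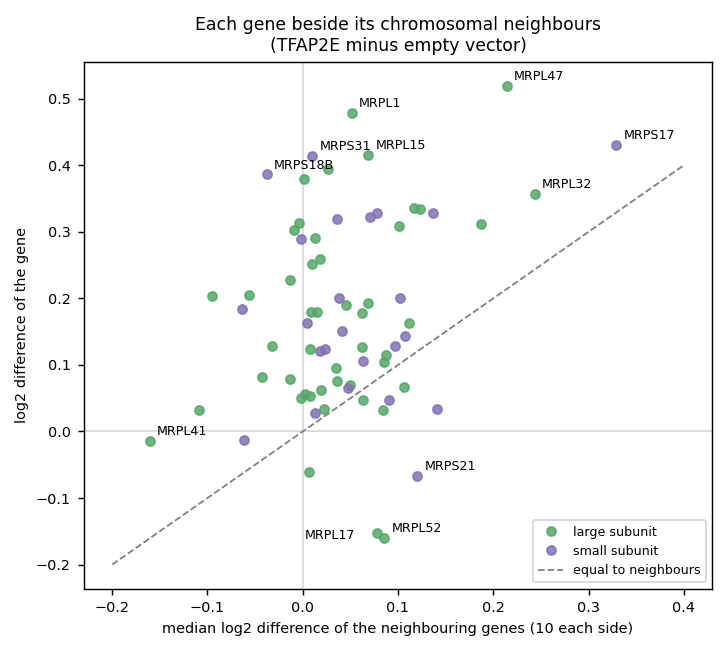
The log2 difference of each of the 71 members (vertical axis) against the median log2 difference of its neighbouring genes (horizontal axis), both TFAP2E-labelled minus empty vector, with large subunit genes in green and small subunit genes in purple. Points above the dashed line, 62 of 71, exceed their neighbours, and MRPS17, MRPL32 and MRPL47 have the highest neighbours.

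Several members share a start region with another gene that runs the opposite way. Start sites within 1000 bases, in diverging direction, were found for 18 pairs, of which 16 joined a member that passed the filter with a gene outside the family that passed it too. In those 16 pairs 11 partners were higher and 5 lower, beside 59.2% higher among all genes. The partner APBA3, at 5.62 with TFAP2E and 5.50 with empty vector, passed the filter only through the array on which it was higher. The median difference was 0.14 for the partners and 0.12 for their members, against 0.04 for all genes, and the member exceeded its partner in 8. MRPL30 (0.39) and MITD1 (0.39) read alike, as did MRPL18 (0.12) and TCP1, a cytosolic chaperonin subunit (0.10). MRPL32 (0.36) lay below its partner, the proteasome subunit PSMA2 (0.47). MRPS18B and PPP1R10 read oppositely, at 0.39 and -0.21. PTCD2, a partner of MRPS27, differed by 0.48, and SARS2, the mitochondrial seryl-tRNA synthetase, which pairs with MRPS12, by 0.19. MRPL46 (0.26) and MRPS11 (0.12), a large and a small subunit gene, form a pair of their own.

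Other genes of mitochondrial translation were taken from lists chosen for their roles, with earlier results of these data known. Each of these lists had a median above that of all genes. Of 4 mitoribosomal proteins under other names 3 were higher (median 0.13), from DAP3 of the small subunit at 0.29 to CHCHD1 at -0.01. Among 32 genes of ribosome assembly and rRNA modification 28 were higher, with a median of 0.20. Past 1.5-fold upward, where 0.892% of all genes lay, were 2 of the 32. Those were MTERF3, of the mitochondrial termination factor family, at 7.08 on the TFAP2E-labelled array, against 6.29 with empty vector (0.78), and the GTPase GTPBP10 at 8.63 with TFAP2E and 7.91 with empty vector (0.72). The lowest were the GTPases MTG1, at 7.19 with TFAP2E and 7.54 with empty vector (-0.35), and MTG2 (-0.09). Of 16 translation factors 14 were higher (median 0.21), led by the initiation factor MTIF2 at 8.90 with TFAP2E and 8.31 with empty vector (0.59). MTIF2 was the 1 gene of that list past 1.5-fold (0.586 against 0.585). Next came TACO1, an activator of COX1 synthesis (0.43), and the release factors MTRF1 (-0.01) and MTRF1L (-0.10) were lowest. Among 19 aminoacyl-tRNA synthetases and transamidation factors of mitochondria 16 were higher (median 0.18), from GATB at 0.38 and NARS2 at 0.33 to AARS2 at -0.09 and VARS2 at -0.16.

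The same held for mitochondrial genes outside translation. Of 24 genes of mitochondrial transcription and DNA maintenance 21 were higher (median 0.17), with the transcription factor TFB2M at 0.56 and the tRNA-processing subunit TRMT10C at 0.49 highest, and the polymerase POLG at -0.07 and ELAC2 at -0.18 lowest. Of 23 protein import genes 22 were higher (median 0.16). Highest were the outer membrane receptor TOMM70 at 8.61 on the TFAP2E-labelled array, against 7.96 with empty vector (0.65), and the chaperone TIMM9 at 0.43. TOMM70 was the 1 import gene past 1.5-fold upward, against 0.892% of all genes. Lowest were PMPCA at 0.01 and HSPE1 at 7.48 with TFAP2E and 7.79 with empty vector (-0.31). Of 70 oxidative phosphorylation genes 58 were higher (median 0.16), from COX6C at 0.56 and UQCRH at 0.54 to NDUFB1 at -0.11 and the ATP synthase inhibitor ATP5IF1 at -0.13. UQCRH read 5.77 with TFAP2E and 5.23 with empty vector, and thus passed the filter only through the array on which it was higher.

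The ribosome of the cytosol gave a comparable value. Of its 63 protein genes that passed the filter 51 were higher, with a median difference of 0.15, from RPL24 at 0.50 and RPS28 at 0.42 to RPL27 at -0.23 and RPL26 at -0.33. At the step of 0.322, 14 of 71 mitochondrial and 5 of 63 cytosolic ribosomal protein genes were higher, against 7.9% of all genes. The cytosolic count was thus at the share of all genes. The mitochondrial count was 8 under 2 scalings, with 6.41% and 6.10% of all genes, and 19 under centring (9.82%). The cytosolic count was not taken under these scalings. Genes at the members' own middle levels of expression, 2528 genes with a mean between 7.68 and 8.69, had a median of 0.06 and 62.8% of them were higher. The shift of the mitochondrial ribosomal protein genes was therefore of the size seen in the other mitochondrial and ribosomal lists, and no test of a difference between these lists could be made on 1 array each.

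**Figure D4:**
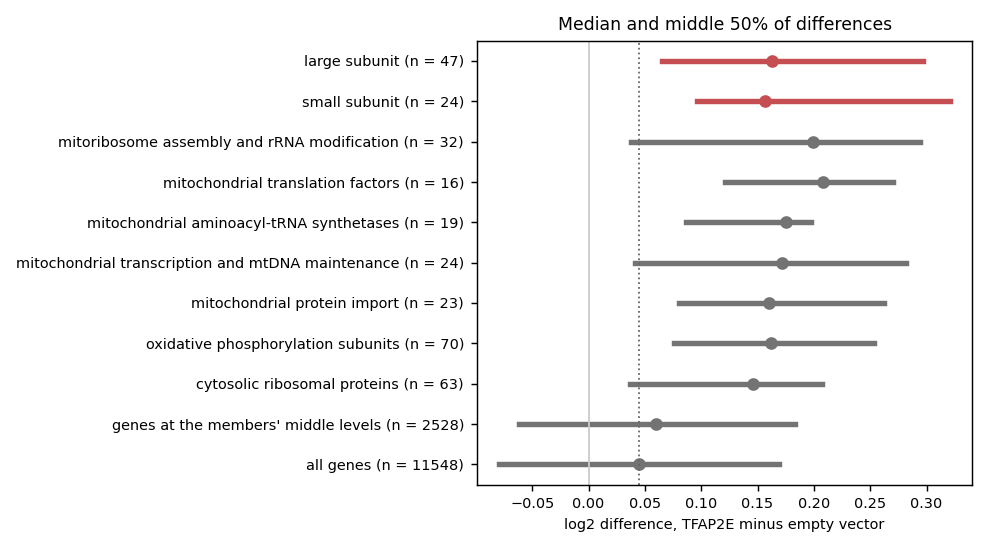
The median (point) and middle 50% (bar) of the log2 differences, TFAP2E-labelled minus empty vector, for both subunits (red), for lists of other mitochondrial and cytosolic ribosomal genes, for genes at the members' middle levels and for all genes, with the number of genes that passed the filter. The list of 4 mitoribosomal proteins under other names is not drawn. The medians of the drawn gene lists lie between 0.15 and 0.21, and those of the last 2 rows at 0.06 and 0.04.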

How the data were processed

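Expression was measured in SW480 cells on 2 Affymetrix arrays, 1 with TFAP2E overexpression and 1 with empty vector. Per the submitters' processing notes, the authors used RMA to make the deposited log2 values. This method corrects background, gives the probes of the arrays a common distribution and summarises them, so that a shift of all transcripts would not show. The deposited probe set values still differed slightly in their median, at 5.54 with TFAP2E and 5.56 with empty vector. The RMA software, its version and a genome build were not given in the sources used here. Of 33297 probe sets, 19460 had 1 gene symbol in the platform annotation, 1754 several and 12083 none. Symbols were updated by Entrez identifier in RefSeq (GRCh38.p14), which held 19429. For a gene with several probe sets the one with the highest mean was used.

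Values were not scaled further. Differences, counts and medians were computed in Python 3.11.15 with pandas 2.3.3, on functions tested on simulated data. No test was possible with 1 array per group. Named genes were the 6 highest and lowest of each subunit, those with several probe sets or dim, those far from their neighbours, and the 2 highest and lowest of each other list. The other members were named for their place in the ribosome after their values were seen, and the groups by place in the ribosome were drawn up then. Also after values were seen, MRPL47 was added to the genes with a bacterial counterpart, and MRPL57 and MRPL58, which are members, were taken off the list of mitoribosomal proteins of other names. Members and lists were chosen with earlier results of these data known. Promoters came from RefSeq, which listed 66 of the 73 genes. Alternatives were 3 scalings, 2 filters, 2 treatments of probe sets, 2 groupings of members and 2 thresholds.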

Additional observations from a re-analysis of the deposited data

How the results depend on the processing

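Under 9 alternatives of scaling, filter, probe set and grouping, the median difference of the large subunit ran from 0.13 to 0.19 and that of the small subunit from 0.11 to 0.18. The large minus small gap ran from -0.04 to 0.02 and changed sign under 3 of them, the filter at the 75th percentile (-0.01), the count of every probe set (-0.04) and the inclusion of mitoribosomal proteins of other names (-0.01). Removal of the loess trend gave 61 of 71 members higher and quantile normalization 63, with all genes at medians of 0.01 and 0.02, and members were above the median of all genes by 0.10 under both. Under none of the 9 did a member pass 1.5-fold. A threshold of 0.322 (log2) gave 14 genes, all higher, and 2-fold gave 0. With the loess trend removed 8 members passed 0.322 upward (6.10% of all genes), with quantile normalization 8 (6.41%) and with centring 19 (9.82%). Signs of members near 0 depended on the scaling, with 2 changes under centring (MRPL41, MRPS33), 2 under quantile normalization (MRPL27, MRPL50) and 4 without the loess trend (MRPL27, MRPL50, MRPS15, MRPS16). MRPL36 turned lower when its probe sets were averaged. The 284 values of single genes each shifted by less than 0.219, the standard deviation over all genes. No paired analysis was possible because there is only 1 array per group.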
